A study of Mus musculus with 6 samples.

Results

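The contractile genes of peritubular myoid cells were followed in juvenile mouse testis with and without Ankrd31. They are 10 genes of the smooth muscle contraction apparatus, Acta2, Actg2, Myh11, Myl9, Mylk, Tagln, Cnn1, Smtn, Lmod1 and Des, chosen by name for what they encode, and all 10 were found among the 49671 gene rows of the count table through GENCODE M21 symbols. The animals were C57BL/6J mice aged 12 days after birth, 3 of them wild type (Ankrd31+/+) and 3 knockout (Ankrd31-/-), and an RNA-seq library was made from the whole testis of each. The libraries are called WT1 to WT3 and KO1 to KO3 by the replicate numbers in their labels. Ankrd31 is a germ cell gene whose product works with the proteins that make the programmed DNA breaks of meiosis and bears on their timing and placement.

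Peritubular myoid cells are flat, smooth-muscle-like cells that wrap each seminiferous tubule outside the basement membrane. Their contraction moves sperm and fluid along the tubule, and together with Sertoli cells they lay down the basement membrane. As in other smooth muscle, calcium and calmodulin switch on myosin light chain kinase, which phosphorylates the myosin regulatory light chain and lets myosin pull on actin filaments. Transcription of many of these genes is driven by serum response factor with its partner myocardin, through a short DNA element called the CArG box. The same genes are active in the smooth muscle of blood vessels, so in whole-testis RNA they do not belong to myoid cells alone, and fewer cells of a type cannot be told apart from less RNA per cell.

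The libraries held 21014060 to 22706296 counts assigned to genes, and 18040 genes passed the filter on low counts, all 10 contractile genes among them. Ankrd31 lay at 84.9, 52.3 and 63.3 CPM (reads of a gene scaled to a common library size with TMM factors) in WT1, WT2 and WT3 and at 40.8, 33.1 and 38.0 CPM in KO1, KO2 and KO3, or 55.9% of the wild-type mean. Its log2 fold change in edgeR was -0.84 ± 0.17 (SE), which did not pass (adjusted p = 1). With the replicate number as a block it was -0.82 ± 0.07, which passed in edgeR (adjusted p = 0.00505). Counts over the whole gene may include transcripts of the knockout allele, so they check the genotype labels only in part. Libraries stood apart in markers of other cells. The summed level of 10 epididymis and rete markers was 70.6 CPM in WT3, 9.82 CPM in KO3 and 3.31 to 5.85 CPM in the other 4 libraries, and Crisp1, a secretory protein of the epididymis, had 29.7 CPM in WT3. The summed level of 8 Leydig cell markers was 782 CPM in KO2 and 261 to 401 CPM in the other 5 libraries. Of these markers, Hsd3b1 was highest in WT3 (207 CPM) and Hsd17b3 in WT2 (36.3 CPM). The rest were highest in KO2, with Cyp17a1 (215 CPM), Star (188 CPM) and Cyp11a1 (140 CPM) making up much of the sum. Without WT3, and without KO2, edgeR again called 0 of the 10 contractile genes. The values of Des and Tagln, where WT3 was high, are therefore also given without that library.

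The promoters of Acta2 and Myl9 are shown because these were the contractile genes with the highest level per length and the ones whose window held a CArG box. Each run covers 250 bases before and 50 after a RefSeq start site (GRCm38.p6), read along the gene's strand, with CArG boxes in capitals. The Acta2 window is chr19:34255324-34255623 on the minus strand and the Myl9 window is chr2:156775214-156775513 on the plus strand.
Acta2: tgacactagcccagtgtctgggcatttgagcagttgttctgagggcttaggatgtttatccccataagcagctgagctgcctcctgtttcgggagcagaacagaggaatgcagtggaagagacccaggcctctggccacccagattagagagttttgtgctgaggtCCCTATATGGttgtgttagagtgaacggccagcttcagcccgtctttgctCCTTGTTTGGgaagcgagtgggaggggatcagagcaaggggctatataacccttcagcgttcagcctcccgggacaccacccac
Myl9: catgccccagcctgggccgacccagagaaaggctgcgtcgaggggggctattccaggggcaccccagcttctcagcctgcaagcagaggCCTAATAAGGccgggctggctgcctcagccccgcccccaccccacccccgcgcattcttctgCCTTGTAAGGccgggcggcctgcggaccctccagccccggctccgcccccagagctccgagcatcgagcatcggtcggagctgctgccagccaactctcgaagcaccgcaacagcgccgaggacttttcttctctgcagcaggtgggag
A box was counted where the core of 6 bases between CC and GG held A or T with at most 1 G or C, a pattern that reads the same on both strands. In Acta2 the boxes CCCTATATGG and CCTTGTTTGG began 84 and 34 bases before the start site, each with 1 G or C in the core. In Myl9 the box CCTAATAAGG, whose core held only A and T, began 161 bases before the start, and CCTTGTAAGG, with 1 G or C, began 99 bases before it. RefSeq windows were matched for 7 of the 10 genes (not for Myh11, Tagln and Actg2), and 2 of the 7 held such a box, against 9.98% of all 32851 windows. With a core of A and T only the counts were 1 of 7 and 1.63%. A match describes the letters and shows no binding, and elements outside these 300 bases were not searched.

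Actin and the regulatory light chain made up the most abundant contractile transcripts of the 12-day testis, and the genes spread over a wide range of levels per length (plot of level per length). Acta2 led with 233 ± 12.0 CPM per kb of exon (SD over 6 libraries), and Myl9 followed with 188 ± 13.4 CPM per kb. Myh11, Mylk and Tagln came next, at 36.5 ± 2.14, 34.9 ± 2.24 and 32.2 ± 5.49 CPM per kb. These 3 were not separated by their spread, since the ranges of neighbours overlapped. Smtn at 8.52 ± 0.398, Lmod1 at 7.84 ± 0.822, Actg2 at 6.88 ± 0.777, Cnn1 at 6.18 ± 0.535 and Des at 5.13 ± 0.488 CPM per kb formed the low end, and again each overlapped with the next. The ranges of Acta2 and Myl9, of Myl9 and Myh11, and of Tagln and Smtn did not overlap. Length here is the summed exon length of all transcripts of a gene, which for Mylk (10159 bases) also includes the long non-muscle kinase and telokin transcripts, so its level per length is that of the locus as a whole.

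**Figure D1:**
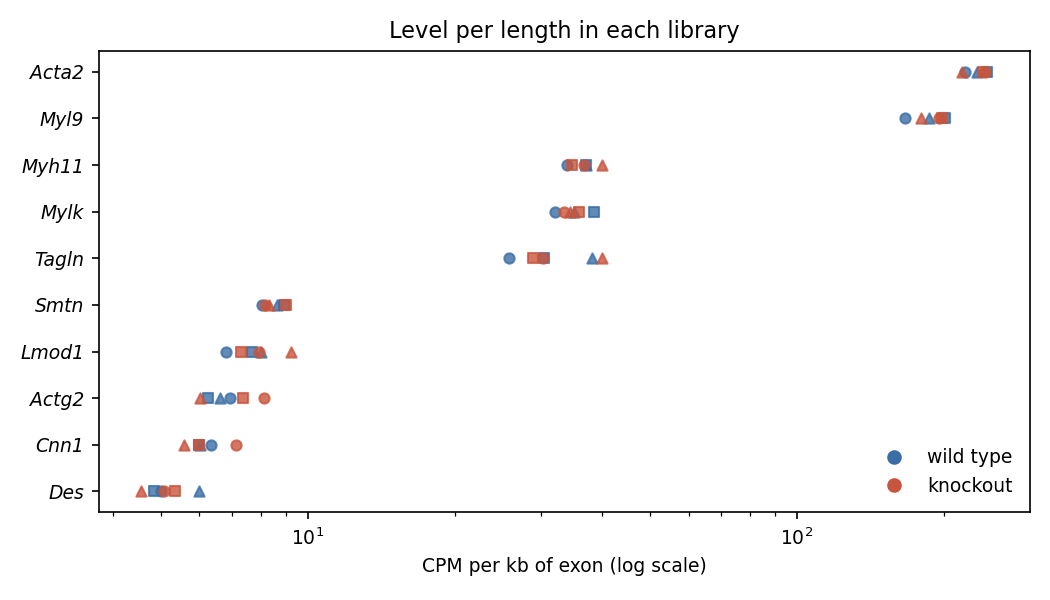
Level of the 10 contractile genes in CPM per kb of exon (log axis), 1 point per library, blue for wild type and red for knockout, with circles, squares and triangles for replicates 1, 2 and 3. Acta2 (217 to 245) and Myl9 (166 to 201) lie above all others, Myh11, Mylk and Tagln share a middle level, and the remaining 5 genes lie between 4.56 and 9.24.

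None of the 10 contractile genes passed the test of knockout against wild-type testes, and their fold changes were small. In edgeR's quasi-likelihood test 0 of 10 passed at an adjusted p under 0.05, and 0 of 10 had an unadjusted p under 0.05. Over all 18040 genes the test called 0%, with 374 genes (2.07%) at an unadjusted p under 0.05. With the replicate number as a block, edgeR again called 0 of 10, against 0.0443% of all genes, and without the block DESeq2 called 0 of 10, against 0.00646%, and limma voom 0 of 10, against 0%. The log2 fold changes ran from -0.08 to 0.12, with a median of 0.03 against -0.00 over all tested genes. Their median size, regardless of sign, was 0.05 against 0.07 over all tested genes. In 0 of 10 genes were the 3 knockout libraries all above or all below the 3 wild-type libraries, against 6.59% of all tested genes, and in 0 of 10 did all 3 pairs of the same replicate number move in one direction, against 28.6%.

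The size of a difference that these data allow is set by the 95% interval of each log2 fold change, taken gene by gene and not adjusted for the number of genes (plot of fold changes). All 10 intervals lay within 1.5-fold in either direction, which 72.1% of all tested genes did, and 5 of 10 (Acta2, Myh11, Myl9, Mylk and Smtn) lay within 1.2-fold, against 36.4%. The 5 wider intervals were those of Des, Tagln, Cnn1, Actg2 and Lmod1. These counts are from edgeR without the block. With the replicate block, all 10 intervals lay within 1.5-fold and 7 of 10 within 1.2-fold. The matching shares over all tested genes were not computed with the block. The summed level of the 10 genes was 1294, 1481 and 1427 CPM in WT1, WT2 and WT3 and 1419, 1427 and 1402 CPM in KO1, KO2 and KO3. The 3 knockout sums lay inside the range of the wild-type sums.

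**Figure D2:**
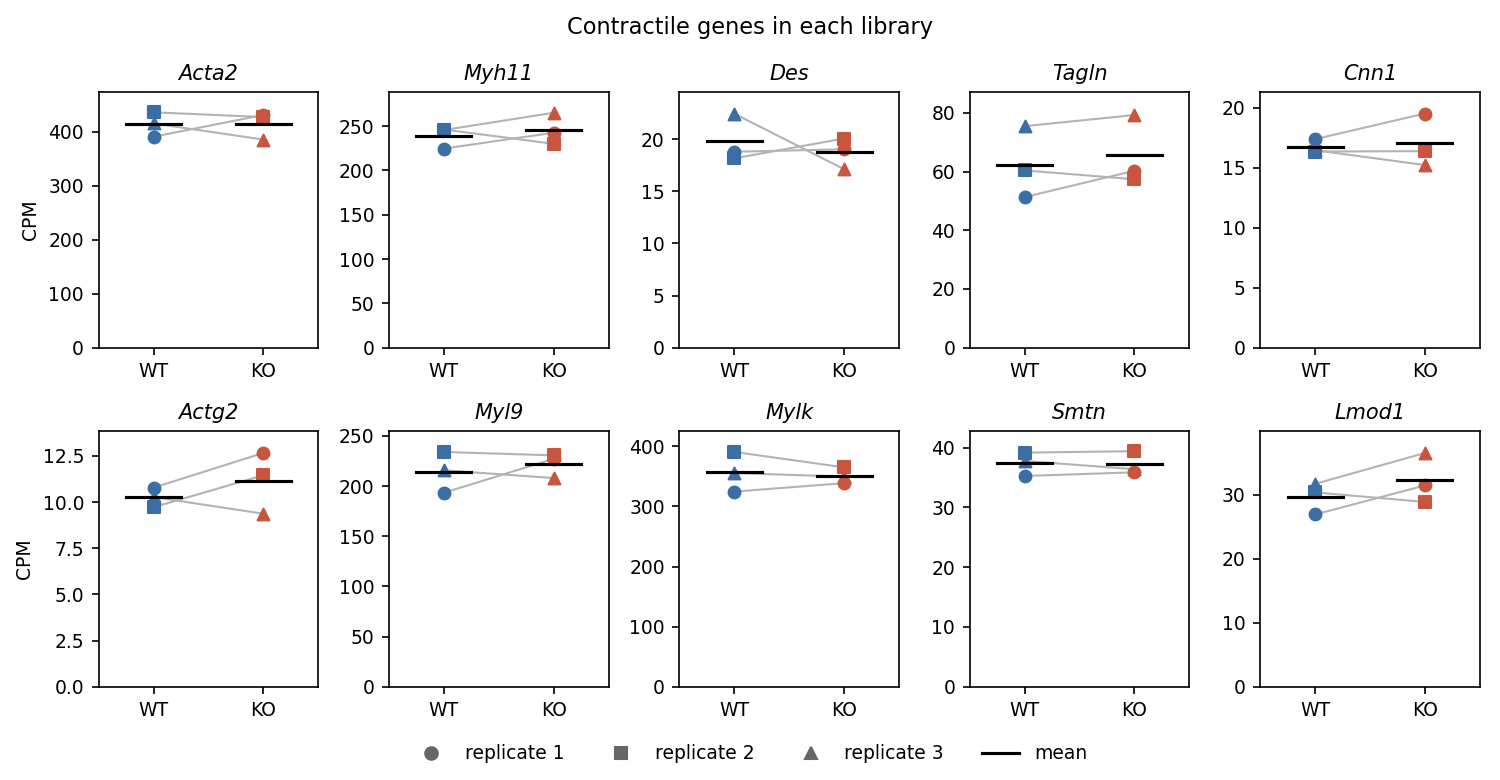
CPM of each contractile gene in the 3 wild-type (WT, blue) and 3 knockout (KO, red) libraries, with grey lines joining libraries of the same replicate number and black bars at the group means; each panel starts at 0 and has its own scale. The 2 groups overlap in all 10 panels, and replicate 3 of Tagln (triangles) stands above the others in both genotypes.

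Neither actin of the list passed the test, and the more abundant of them had almost the same mean in the 2 genotypes. Acta2 (ENSMUSG00000035783, mm10 chromosome 19, 34241090 to 34255336, minus strand) encodes smooth muscle alpha-actin, the classical marker of peritubular myoid cells. It lay at 391, 436 and 416 CPM in WT1, WT2 and WT3 and at 431, 427 and 386 CPM in KO1, KO2 and KO3. The groups overlapped throughout, with KO3 the lowest library and WT2 the highest. The means of 414 ± 22.6 and 415 ± 25.3 CPM (SD, n = 3) gave a log2 fold change of 0.00 ± 0.07 (SE), with a 95% interval of 0.898-fold to 1.12-fold. Actg2 (ENSMUSG00000059430, chromosome 6, 83512905 to 83536265, minus strand) encodes the gamma-actin of visceral smooth muscle. Its level was 10.8, 9.72 and 10.3 CPM across the wild-type and 12.7, 11.4 and 9.37 CPM across the knockout libraries. KO1 was the highest and KO3 the lowest library, so the knockout values enclosed the wild-type ones. With 208 to 278 counts per library its log2 fold change was 0.12 ± 0.13, and the 95% interval reached from 0.888-fold to 1.33-fold. The actins are alike in protein sequence, but of all 50-base windows in their transcripts only 0.326% (Acta2) and 0% (Actg2) occurred in a transcript of another gene, against 37.4% for the cytoplasmic actin gene Actg1, which has processed pseudogenes.

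The myosin motor and its switch had log2 fold changes smaller than their standard errors. Myh11 (ENSMUSG00000018830, chromosome 16, 14194527 to 14291408, minus strand) encodes the smooth muscle myosin heavy chain. It lay at 225, 246 and 246 CPM across the wild-type and at 243, 230.1 and 265 CPM across the knockout libraries, with a log2 fold change of 0.04 ± 0.07. KO3 was highest and WT1 lowest, and the other 4 libraries lay between 230.1 and 246 CPM. Myl9 (ENSMUSG00000067818, chromosome 2, 156775420 to 156781658, plus strand) encodes the regulatory light chain whose phosphorylation starts contraction. It lay at 193, 234 and 216 CPM across the wild-type and at 227, 231 and 208 CPM across the knockout libraries, with a log2 fold change of 0.05 ± 0.08. Here WT1 was the lowest library and WT2 the highest, so that the wild-type values enclosed the knockout values. Mylk (ENSMUSG00000022836, chromosome 16, 34745210 to 35002420, plus strand) encodes the kinase that phosphorylates this light chain. Its level of 325, 391 and 356 CPM across the wild-type and 339, 365 and 350 CPM across the knockout libraries gave a log2 fold change of -0.02 ± 0.08. WT1 and WT2 again marked the lowest and the highest level. The 95% intervals were 0.923-fold to 1.15-fold for Myh11, 0.916-fold to 1.17-fold for Myl9 and 0.875-fold to 1.11-fold for Mylk.

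Tagln was the contractile gene that varied most between libraries, and it was highest in replicate 3 of both genotypes. Tagln (ENSMUSG00000032085, chromosome 9, 45929619 to 45936058, minus strand) encodes transgelin, also called SM22, a protein that binds actin filaments in smooth muscle. It lay at 51.3, 60.4 and 75.5 CPM in WT1, WT2 and WT3 and at 60.3, 57.4 and 79.2 CPM in KO1, KO2 and KO3. Replicate 3 lay above the other 4 libraries in both genotypes, the 2 groups overlapped, and the highest library stood 1.54-fold above the lowest. The log2 fold change was 0.07 ± 0.17 without the block and 0.08 ± 0.06 with it. The log2 fold change was 0.24 without WT3, -0.08 without KO3 and -0.05 without WT1, so its sign depended on single libraries. Replicate 3 was also where epididymis and rete markers were highest in each genotype, at 70.6 CPM in WT3 and 9.82 CPM in KO3. The same held for the sums of 10 markers of pericytes and vascular smooth muscle (286 CPM in WT3, 277 CPM in KO3). It held too for 8 stroma markers (3798 CPM in WT3, 3326 CPM in KO3). No other marker list had its highest sum in replicate 3 of both genotypes. The part of any of these cells in the Tagln level was not tested. An antisense gene, Gm48529, shares 1241 of the 1988 exon bases of Tagln and had 101 to 142 counts per library against 1133 to 1759 for Tagln. Pcsk7, also antisense, shares 108 exon bases with Tagln and had 822 to 1025 counts per library. Of the 50-base windows in Tagln transcripts, 58.3% occurred in a transcript of these 2 genes, counting both strands. The labels name a stranded kit and give no strand setting for the counting. Reads of Tagln and these genes may thus not be fully separated, a limit that also holds for its level per length.

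Genes for proteins that hold and tune the thin filament did not pass either. Cnn1 (ENSMUSG00000001349, chromosome 9, 22099216 to 22109630, plus strand) encodes calponin, which binds actin and slows the myosin motor. It lay at 17.4, 16.4 and 16.5 CPM across the wild-type and at 19.5, 16.4 and 15.2 CPM across the knockout libraries, with a log2 fold change of 0.03 ± 0.11. As with Actg2, KO1 was the highest and KO3 the lowest library. Smtn (ENSMUSG00000020439, chromosome 11, 3517523 to 3540612, minus strand) encodes smoothelin, an actin-binding protein of contractile smooth muscle. At 35.3, 39.2 and 37.8 CPM across the wild-type and 35.9, 39.4 and 36.4 CPM across the knockout libraries, it varied least of the 10 genes, by 1.12-fold from lowest to highest, and its log2 fold change was -0.01 ± 0.08. Lmod1 (ENSMUSG00000048096, chromosome 1, 135324807 to 135368065, plus strand) encodes leiomodin, which starts new actin filaments. It lay at 26.9, 30.3 and 31.7 CPM across the wild-type and at 31.4, 28.8 and 36.5 CPM across the knockout libraries. KO3 stood highest and WT1 lowest, as for Tagln and Myh11. Its log2 fold change of 0.12 ± 0.10 had the smallest unadjusted p of the 10 in edgeR (0.264, adjusted p = 1) and was positive in 2 of 3 pairs.

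Des was the contractile gene with the most negative fold change, and its sign rested on WT3. Des (ENSMUSG00000026208, chromosome 1, 75360329 to 75368579, plus strand) encodes desmin, the intermediate filament protein that ties the contractile apparatus together in muscle cells. It lay at 18.8, 18.2 and 22.4 CPM in WT1, WT2 and WT3 and at 19.03, 20.1 and 17.1 CPM in KO1, KO2 and KO3. WT3 was the highest library, KO3 the lowest, and the other 4 lay between them. The log2 fold change was -0.08 ± 0.11, and it was 0.03 without WT3, the library with the epididymis and rete markers, whose part in the Des level was not tested. In pairs 1, 2 and 3 the log2 ratios of knockout to wild type were 0.02, 0.14 and -0.39. Desmin is also a protein of skeletal muscle. The sum of 13 skeletal muscle markers was 33.1 to 46.6 CPM across the wild-type libraries (lowest in WT2) and 34.3 to 48.2 CPM across the knockout libraries (highest in KO1). Of the 13, 7 passed the filter on low counts, among them Actn3 at 15.7 to 29.7 CPM, Myh3 at 4.05 to 5.59 CPM and Myh1 at 2.03 to 5.57 CPM, while the regulators Myod1 and Myog lay at or below 0.36 CPM. Of the 7, 3 were above and 4 below 0, and 0 passed in edgeR. Only Myh3 and Tnni2 had an unadjusted p under 0.05 in edgeR without the block (log2 fold changes of -0.34 and -0.68). The groups of these 2 did not overlap, and Tnni2 was low, at 0.54 to 1.23 CPM. Of all tested genes, 2.07% had such a p and 6.59% had groups that did not overlap. The part of skeletal muscle in the Des level was not tested.

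**Figure D3:**
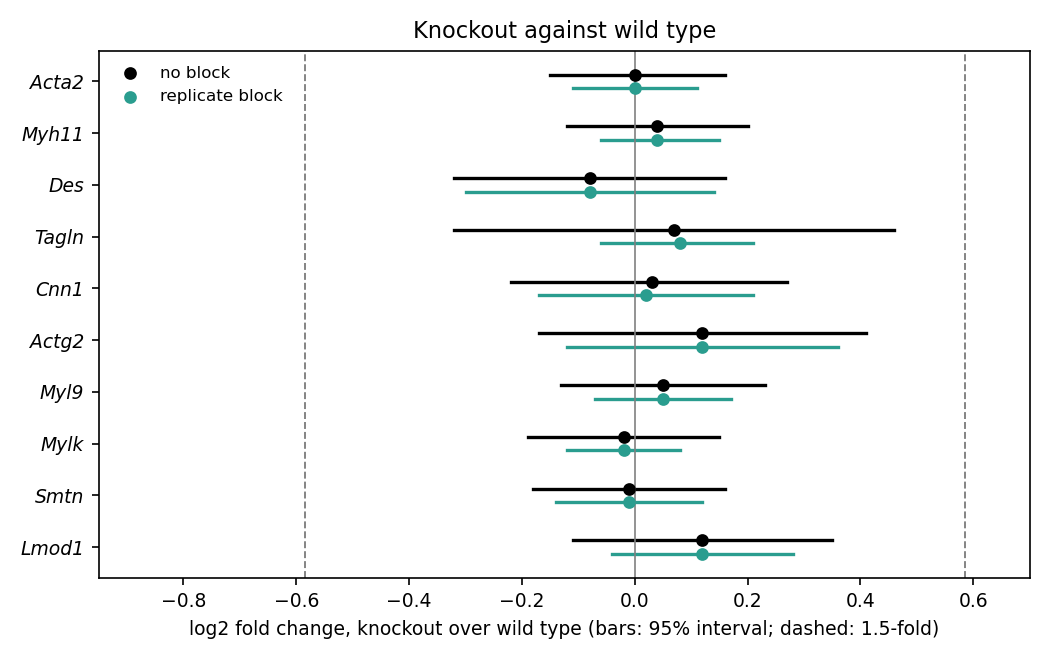
Log2 fold change of each contractile gene, knockout over wild type, with its 95% interval, from edgeR without (black) and with (green) the replicate number as a block; dashed lines mark 1.5-fold in either direction. All intervals include 0 and end inside the dashed lines, and the interval of Tagln shrinks most with the block.

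The 10 genes were not all highest or all lowest in the same library (plot of deviations). Whether they shared a movement beneath the scatter of single libraries was not tested. WT1 was the lowest library for 6 genes (Myh11, Tagln, Myl9, Mylk, Smtn and Lmod1) and KO3 for the other 4 (Acta2, Des, Cnn1 and Actg2), while KO3 was the highest for Tagln, Myh11 and Lmod1. In KO3 the log2 level stood 0.33, 0.24 and 0.13 above the gene mean for Tagln, Lmod1 and Myh11, and 0.18, 0.17, 0.15 and 0.10 below it for Actg2, Des, Cnn1 and Acta2. Acta2, Myl9, Mylk and Smtn were above their means in both libraries of replicate 2. The SD over the 6 libraries on the log2 scale was between 0.0673 (Smtn) and 0.241 (Tagln), with a median of 0.113, against 0.139 over the tested genes with counts in every library. The standard error of the genotype effect was smaller with the replicate block in 10 of 10 genes, with a median of 0.0601 against 0.0912 without it. Over all tested genes these medians were 0.0849 and 0.113. Germ cell markers (5 genes) summed to 2232 CPM in WT1 and 2201 CPM in KO1, the highest of the 6 libraries, against 1525 to 1949 CPM in the other 4. The part of germ cell RNA in the low levels of WT1 was not tested.

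**Figure D4:**
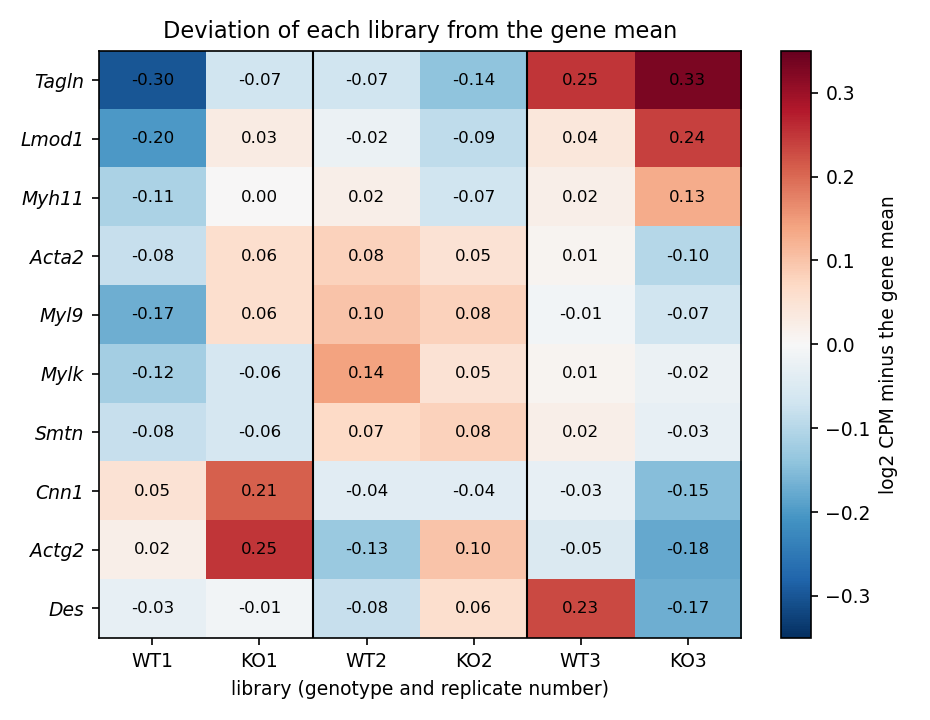
Log2 CPM of each contractile gene minus its mean over the 6 libraries, with libraries of the same replicate number side by side between vertical lines; red is above and blue below the mean. Tagln is high in both libraries of replicate 3 (0.25 and 0.33), and KO3 is high for Tagln, Lmod1 and Myh11 but low for Acta2, Cnn1, Actg2 and Des.

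The averaged profile of the 10 genes was nearly flat, with an SD of 0.0543 on the log2 scale over the 6 libraries. The 5 other genes closest to it were Hnrnph2, an RNA-binding protein gene, Ece2, an endothelin-converting enzyme gene, Txndc17, Hsd17b12 and Zfp991. Their root mean square distance from the profile was 0.0167 to 0.0228 over the 6 libraries, among 12071 genes that varied at least 0.75 times as much as the profile and had a mean of at least 5 CPM. Near a flat profile such closeness is common and describes these libraries only.

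The transcription factors that drive contractile genes were detected in all libraries and did not pass the test. Of 6 genes, 0 passed in edgeR with or without the block (2 above and 4 below 0, median log2 fold change -0.03). Srf, serum response factor, lay at 101, 108 and 96.2 CPM across the wild-type and at 99.1, 102 and 97.8 CPM across the knockout libraries, with a log2 fold change of -0.03 ± 0.06. Its muscle-specific partner Myocd was low, at 3.53, 6.38 and 6.68 CPM and at 4.28, 5.27 and 6.22 CPM, with -0.07 ± 0.24. Replicate 1 was the lowest library of Myocd in both genotypes. The repressor of the contractile state Klf4 had 0.04 ± 0.09 and the myocardin-related cofactor Mrtfb 0.02 ± 0.08.

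Filament, signalling and receptor genes around the contractile core did not pass either (plot of related lists). Of 15 genes for other filament and anchoring proteins, 13 had a log2 fold change below 0 and 0 passed with or without the block (median -0.03). With the block, only the filamin gene Flna of these had an unadjusted p under 0.05 in edgeR (0.00398, adjusted p = 0.411). Its log2 fold change in that fit was -0.17 ± 0.05, and 1349 of all tested genes had such a p there. Over all 18040 tested genes, 9422 were below 0 in edgeR without the block. The myosin essential light chain gene Myl6 had -0.06 ± 0.09, the LIM protein gene Csrp1 -0.02 ± 0.07 and the vinculin gene Vcl -0.03 ± 0.08. Of 14 tested genes for the control of contraction, 8 were above and 6 below 0, and 0 passed (median 0.02). The calcium pump gene Atp2a2 had -0.01 ± 0.06 and the myosin phosphatase subunit gene Ppp1r12a 0.07 ± 0.06. The fifteenth, Pln, was at or below 0.09 CPM in every library.

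Receptors and ligands that act on myoid contraction had a median log2 fold change of -0.16, with 5 of 8 genes below 0 and 0 passing with or without the block. Endothelin makes tubules contract, and its receptor gene Ednra lay at 46.1, 64.6 and 64.5 CPM across the wild-type and at 47.1, 49.7 and 54.3 CPM across the knockout libraries. WT1 was as low as KO1, and the groups overlapped. The log2 fold change of Ednra was -0.21 ± 0.13 (edgeR adjusted p = 1) and with the block -0.20 ± 0.07 (edgeR adjusted p = 0.573). The endothelin gene Edn1 had -0.23 ± 0.22.

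Relatives of the contractile genes, muscle and non-muscle, and the matrix and niche factors that myoid cells share with other cells did not pass. Of 14 tested relatives (of 21 listed), 11 were below 0 and 0 passed (median -0.04), with -0.03 ± 0.07 for the cytoplasmic actin gene Actb, 0.01 ± 0.07 for the intermediate filament gene Vim and -0.06 ± 0.09 for the calponin relative Cnn3. Over all 18040 tested genes, 9422 were below 0 in edgeR without the block. All 9 matrix and niche genes were below 0 with a median of -0.07, and 0 passed with or without the block. Among them the basement membrane collagen genes Col4a1 and Col4a2 had -0.09 ± 0.09 and -0.07 ± 0.09, and Cyp26b1, which breaks down retinoic acid, -0.07 ± 0.11. The cytokine gene Lif had the lowest level per length of that list, 0.427 CPM per kb, and lay at 2.22, 2.07 and 2.23 CPM across the wild-type and at 1.5, 1.42 and 1.71 CPM across the knockout libraries. It was named after its values were seen: its groups did not overlap, and with a log2 fold change of -0.49 ± 0.19 it was the only gene of these 6 related lists with an unadjusted p under 0.05 in edgeR without the block (0.0312, adjusted p = 1). Of all tested genes, 2.07% had such a p and 6.59% had groups that did not overlap. With the block, the genes of these lists with an unadjusted p under 0.05 in edgeR were Flna, Edn1, Ednra, Col4a1, Lamb1 and Lif. Of all tested genes, 1349 had one in that fit.

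**Figure D5:**
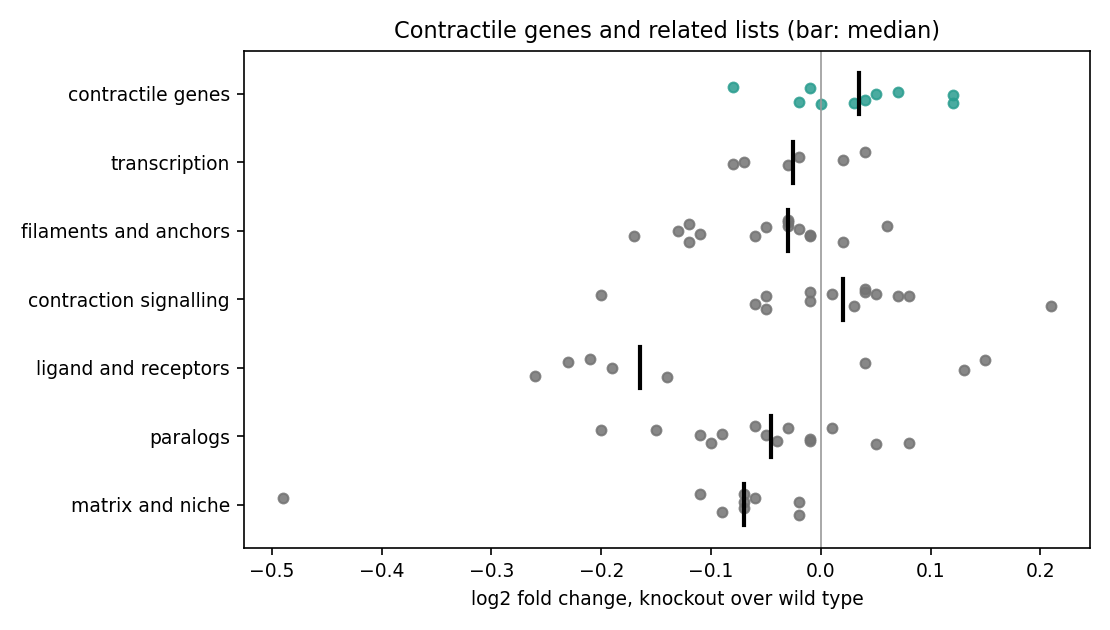
Log2 fold change, knockout over wild type, from edgeR without the block, 1 point per tested gene, for the 10 contractile genes (green) and 6 lists of related genes (grey), with a black bar at each median. The contractile genes lie between -0.08 and 0.12, and the outlying point at -0.49 in the bottom row is Lif.

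Markers of the vessel wall, whose cells also carry contractile genes, had overlapping summed levels in the 2 groups. All 10 markers of pericytes and vascular smooth muscle passed the filter on low counts, from Higd1b with a mean of 0.774 CPM to Mcam with 137 CPM, and their sum was 248 to 286 CPM across the wild-type and 257 to 277 CPM across the knockout libraries. Of the 10, 4 were above and 6 below 0 with a median log2 fold change of -0.01, and 0 passed in edgeR with or without the block. The pericyte gene Rgs5 had 0.03 ± 0.08. The receptor genes Pdgfrb and Notch3 had -0.23 ± 0.13 and -0.26 ± 0.12. With the block, only these 2 of the 10 had an unadjusted p under 0.05 in edgeR. Their unadjusted p-values in edgeR were 0.0314 and 0.00738 (adjusted p = 0.622 and 0.505). Of all 18040 tested genes, 1349 had an unadjusted p under 0.05 in edgeR with the block. The share of the contractile counts that came from vessels was not tested.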

How the data were processed

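RNA was measured in 6 whole-testis libraries. The authors made gene-level read counts, deposited as a single table without normalization; reads were handled with bcl2fastq 2.19.1, GSNAP and featureCounts 1.6.0 on mm10, per the submitters' processing notes. How strand and multiply matching reads were treated, the annotation release and the read length are not given in the sources used. The deposited length column, per the file headers, gives summed exon bases and served for CPM per kb.

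Of 49763 rows, 92 spike-in rows (1 count in all) were left out, and 49326 of 49671 gene rows had a symbol in the GENCODE M21 name table (0.0311% of counts did not). The 10 genes and the gene lists were chosen with earlier results of these data known. Related genes were named by highest mean level per length (3 per list), with Myocd and Srf. Lif was added after its values were seen. Flna, Lamb1 and the markers Myh3, Tnni2, Pdgfrb and Notch3 were named for their p-values. Not every gene that this rule selects is reported here.

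The test was edgeR 4.0.16 under R 4.3.3 (robust quasi-likelihood fit, two-sided, TMM factors, filterByExpr), with Benjamini-Hochberg adjustment over 18040 genes and a threshold of 0.05; intervals use the fit's degrees of freedom. Values are CPM on effective library sizes. Code was tested on simulated data. DESeq2 1.42.0, limma voom 3.58.1, other scalings, no filter, the replicate block and fits without each library were alternatives. Groups share replicate numbers 1 to 3, and same-numbered libraries deviated together from their group means (correlations of 0.42, 0.26 and 0.28, above the limit of 0.1). On the strength of the data alone they were treated as pairs in the block and in the pair ratios. The main test has no block, and the labels do not say what the numbers mark. Totals of 21014060 to 22706296 counts gave a biological coefficient of variation of 10.3% (5.67% with the block). Each genotype has 3 mice per the labels, and replicates differed by 7.94 to 14.1 in chi-square per degree of freedom, so no library repeats another. Promoter windows are from RefSeq (GRCm38.p6), and 50-base windows were compared over all GENCODE M21 transcripts on both strands.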

Additional observations from a re-analysis of the deposited data

How the results depend on the processing

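The count of contractile genes called stayed at 0 of 10 under all 13 alternatives run, with a smallest adjusted p of 0.771 (edgeR with the replicate block). Over all genes, 0 calls became 8 with the replicate block, 1 with no filter on low counts in edgeR and 2 in DESeq2, and stayed at 0 without any 1 library. Leaving out WT1 changed the comparison most. It gave 1531 genes with an unadjusted p under 0.05 in edgeR, against 374 with all libraries and 268 to 410 without any other library. The median of the contractile genes was then -0.03. The replicate block changed no call among the 10 genes. Of 130 log2 fold changes of single genes under the alternatives, 112 kept their direction and 18 changed sign, none of them larger than 0.08 in size; all were uncalled values near 0, so their direction is not resolved at this depth and number of libraries. With library totals alone Acta2 had -0.01. Without both libraries of replicate 3 and with the replicate block, an alternative added after the data were seen, Des had 0.08 and Smtn 0.02. Without 1 library at a time the log2 fold changes ran from -0.04 to 0.05 for Acta2, -0.01 to 0.10 for Myh11, -0.14 to 0.03 for Des, -0.08 to 0.24 for Tagln, -0.08 to 0.10 for Cnn1, 0.02 to 0.23 for Actg2, -0.02 to 0.12 for Myl9, -0.09 to 0.05 for Mylk, -0.05 to 0.03 for Smtn and 0.03 to 0.21 for Lmod1, and the median of the 10 from -0.03 to 0.05.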
